A study of Mus musculus with 6 samples.

Results

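Chemokines are small secreted proteins that guide migrating cells, and their receptors are G protein-coupled receptors that signal mainly through inhibitory G proteins and are switched off by receptor kinases, arrestins and RGS proteins. In the thymus, Ccr9 with its ligand Ccl25, Ccr7 with its ligands and Cxcr4 with its ligand Cxcl12 guide the entry of progenitors and the movement of thymocytes between cortex and medulla, and most of these ligands are made by stromal cells. Cxcr3, Cxcr6 and Ccr10 are better known on effector and innate-like lymphocytes.

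The probe sets described here are those whose platform gene symbol is Ccr, Cxcr, Ccl or Cxcl followed by a number, or is Xcr1, Cx3cr1, Xcl1 or Cx3cl1. There were 77 of them among 45037 probe sets without controls: 26 for 16 receptor genes and 51 for 33 ligand genes. These are 49 of the 18193 genes that have a probe set with a single symbol. A further 4 probe sets carry a family symbol among several symbols and were left out. The study compared thymocytes on 6 single-colour arrays, 3 from wild type mice and 3 from mice described as Egr1/Egr3 double knockouts, with 1 animal per array per the labels. Egr1 and Egr3 encode zinc finger transcription factors induced by antigen receptor signals. The sample descriptions name flow-sorted double negative thymocytes, which lack the coreceptors CD4 and CD8, whereas the titles and source names read whole thymus; the titles also say that the RNA was amplified. The labels give no strain, age or sex and do not say which part of each gene was deleted.

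The values are linear intensities that the authors scaled to a common trimmed mean of 150 on each array, in arbitrary units. The number of arrays, 3 in each group, limits the precision of every value. Each array carries 27 Bacillus subtilis controls, and the brightest of them, between 19.0 and 29.9 over the 6 arrays, is used below as the control level. Cd4 stayed under the control level on all 6 arrays, while Cd8a (68.5 to 197) and Cd8b1 (65.9 to 137) lay above it on all 6. Of 9 tested markers of the DN3 stage, at which the pre-T cell receptor is first tested, 3 were lower in the group labelled double knockout (Ptcra, Il2ra and Dntt); Ptcra, the pre-T cell receptor chain, read 4154 to 5145 in wild type and 1056 to 1469 in the other group. The part of this shift in the values below was not tested. Egr1 read higher, at 1221 to 1757, in the group labelled double knockout than in wild type, at 455 to 509. It passed the test described below (log2 change 1.60, limma adjusted p = 0.0031). The brighter Egr3 probe set read 34.4, 45.8 and 32.9 against 92.2, 83.1 and 30.8 in wild type. The dimmer one read 12.5, 32.1 and 55.4 against 34.2, 30.5 and 30.5. Both Egr3 probe sets overlapped between groups, and neither passed that test. Whether any of these Egr1 and Egr3 probe sets lies in a deleted part is unknown, so the group is called "labelled double knockout" throughout. Wild type replicate 3 stood apart, since the summed intensity of 14 granulocyte markers was 435 there and 11689 to 28067 on the other 5 arrays. The Y-linked gene Eif2s3y read 476 on wild type replicate 1 and 13.2 and 0.625 on wild type replicates 2 and 3. In the group labelled double knockout it read 186 to 265. The brightest probe sets of the Y-linked genes Kdm5d and Uty read 144 and 63.7 on wild type replicate 1. They read 2.52 to 12.4 on wild type replicates 2 and 3, and only 10.3 to 29.5 in the group labelled double knockout. The brightest Xist probe set read 1439 to 6015 on all 6 arrays. Whether each array holds RNA of 1 animal is not settled by these values.

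Changes are given as the mean log2(intensity + 16) of the arrays labelled double knockout minus that of the wild type arrays, with each array centred on its median. This scale understates changes of dim probe sets. The limma test was run on the 27022 probe sets past a filter on low mean values, and adjusted p-values are over all of them. Of the chemokine family, 20 of 26 receptor probe sets (13 of 16 genes) and 30 of 51 ligand probe sets (21 of 33 genes) passed the filter.

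The receptor genes Cxcr3, Cxcr4 and Ccr10, were higher in the group labelled double knockout, and no ligand passed the test. The 3 receptor probe sets make up 3 of 20 tested, where 5.03% of all tested probe sets passed in either direction, 2.91% higher and 2.11% lower. No receptor was lower at this threshold. With 1 probe set per gene, 3 of 13 receptor genes and none of 21 ligand genes passed, where 6.98% of all genes did. Without the filter, 2 of 26 receptor probe sets passed (Cxcr3 and Cxcr4), where 2.12% of all probe sets did, and the adjusted p of Ccr10 was 0.0705. In bulk RNA, more cells of a type and more RNA per cell cannot be told apart.

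Cxcr3 is the receptor of the interferon-induced chemokines Cxcl9, Cxcl10 and Cxcl11. It read 136, 190.5 and 90.6 on wild type replicates 1 to 3 and 396, 342 and 413 in the group labelled double knockout. All 3 latter arrays lay above the highest wild type array, and the groups did not overlap. The mean rose from 139 ± 50.0 to 383 ± 37.0 (SD, n = 3 each), a log2 change of 1.40 (SE 0.29, limma adjusted p = 0.0185). Cxcr3 lies on the X chromosome, and the Xist and Eif2s3y values above differed between arrays, whose part in the result was not tested.

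Cxcr4 is the receptor of Cxcl12 and is used by thymocytes at the pre-T cell receptor checkpoint. It read 465, 516 and 835 in wild type and 1723, 1293 and 1168 in the group labelled double knockout. Wild type replicate 3 was the highest of its group, and the groups did not overlap. The mean rose from 606 ± 200.5 to 1394 ± 291 (SD, n = 3 each), a log2 change of 1.19 (SE 0.28, limma adjusted p = 0.032).

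Ccr10 is the receptor of the epithelial chemokines Ccl27 and Ccl28. It read 43.9, 62.7 and 55.4 in wild type and 112, 161 and 122 in the group labelled double knockout. Each array lay above its control level, and the groups did not overlap. The mean rose from 54.0 ± 9.49 to 132 ± 26.2 (SD, n = 3 each), a log2 change of 1.05 (SE 0.25, limma adjusted p = 0.0315).

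**Figure D1:**
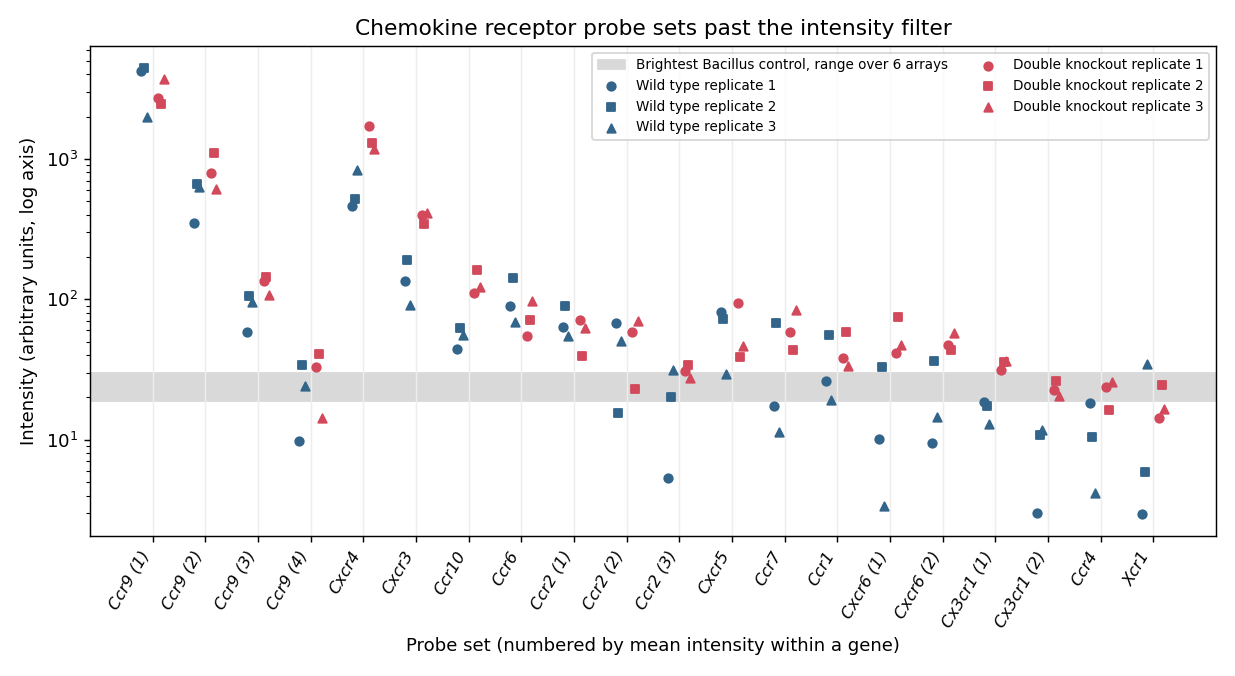
Intensity (log axis) of the 20 receptor probe sets past the filter on each of the 6 arrays, wild type in blue and labelled double knockout in red, with the symbol for the replicate number. The grey band is the range of the brightest Bacillus control, 19.0 to 29.9; the red points of Cxcr3, Cxcr4 and Ccr10 lie above all their blue points, and those of Ccr9 (1) mix with them.

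These 3 calls depended on the arrays used, although the change stayed positive with any 1 array left out. Without wild type replicate 3 all 3 passed, with log2 changes of 1.14 for Cxcr3 (adjusted p = 0.0163), 1.43 for Cxcr4 (adjusted p = 0.00359) and 1.06 for Ccr10 (adjusted p = 0.0249). On that array 5 of the 14 granulocyte markers lay above the control level, against 11 to 13 on the other arrays, and their part in the receptor values was not tested. Cxcr3 also passed without wild type replicate 2 (adjusted p = 0.0204) and double knockout replicate 2 (adjusted p = 0.0485), but not without wild type replicate 1 (adjusted p = 0.0589) or double knockout replicates 1 and 3 (adjusted p = 0.111 and 0.0724). Cxcr4 did not pass without wild type replicates 1 or 2 (adjusted p = 0.107 and 0.116) or double knockout replicates 1, 2 or 3 (adjusted p = 0.205, 0.0828 and 0.0661). Ccr10 did not pass without wild type replicates 1 or 2 (adjusted p = 0.104 and 0.0543) or double knockout replicates 1, 2 or 3 (adjusted p = 0.111, 0.119 and 0.0827).

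**Figure D2:**
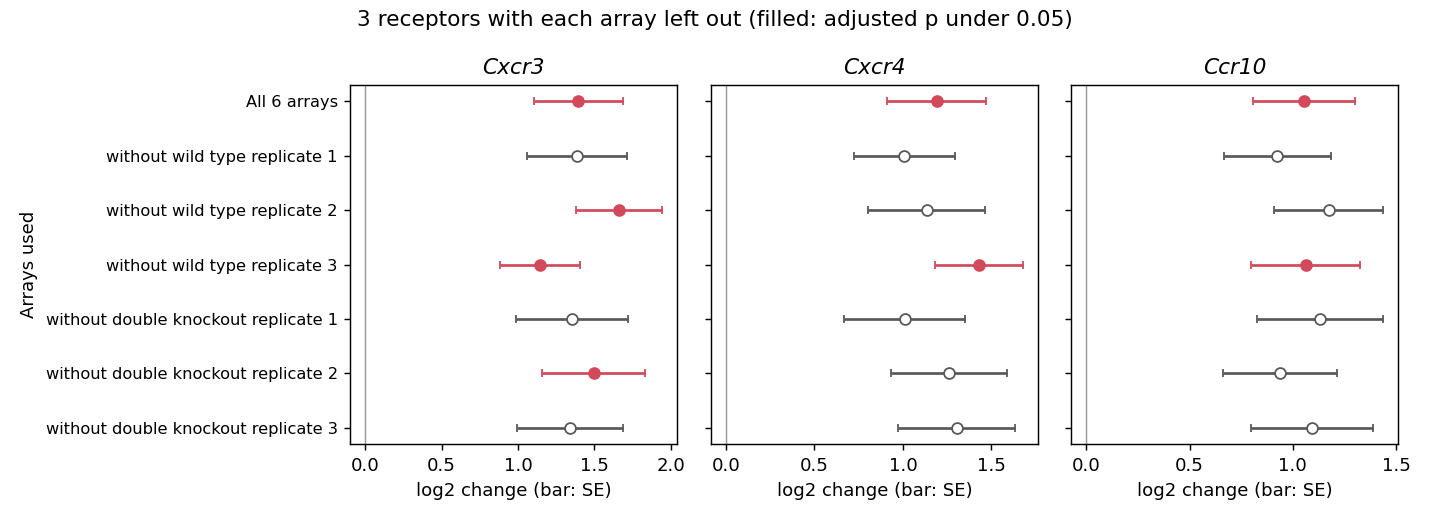
log2 change of Cxcr3, Cxcr4 and Ccr10 (point) with its SE (bar) from the fit to all 6 arrays and with each array left out, filled where the limma adjusted p was under 0.05. Every point lies above 0, between 0.92 for Ccr10 without wild type replicate 1 and 1.66 for Cxcr3 without wild type replicate 2, and all 3 panels are filled without wild type replicate 3.

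The labels name Egr1 and Egr3, whose proteins bind a GC-rich motif. The bases before the start site are shown for the 2 of these receptors that the RefSeq promoter table (GRCm38.p6) holds. A link between the motif and the changes was not tested. Each run is the 250 bases before the annotated start, 5′ to 3′ on the gene's strand. Capitals mark matches on either strand to the EGR motif GCGNGGGCG, the GC box GGGCGG (which can overlap it), TATAAA and CCAAT.
Cxcr4, minus strand, chr1:128592300-128592549: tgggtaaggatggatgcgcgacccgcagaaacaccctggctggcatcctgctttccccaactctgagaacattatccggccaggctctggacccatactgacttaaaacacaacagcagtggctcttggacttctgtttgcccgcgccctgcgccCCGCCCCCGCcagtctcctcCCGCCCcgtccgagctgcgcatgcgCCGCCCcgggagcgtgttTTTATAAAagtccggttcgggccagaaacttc
Cxcr3, minus strand, chrX:101734148-101734397: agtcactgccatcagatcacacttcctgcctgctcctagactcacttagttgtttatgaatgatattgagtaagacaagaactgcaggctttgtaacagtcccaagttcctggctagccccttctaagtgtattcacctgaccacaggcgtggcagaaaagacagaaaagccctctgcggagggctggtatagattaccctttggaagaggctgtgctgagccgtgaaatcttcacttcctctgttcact
The Cxcr4 window held 1 EGR match, on the opposite strand 94 to 86 bases before the start, with a GC box overlapping it, 2 further GC boxes and a TATA stretch 32 to 25 bases before the start. The Cxcr3 window held none of the 4 motifs. Of 32851 promoters of this length in the table, 4.7% held the EGR motif, 32.7% the GC box, 12.4% TATAAA and 33.8% CCAAT. The table holds 36 of the 49 member genes, and the EGR motif occurred in 1 of 14 receptor promoters (Cxcr4) and 0 of 26 ligand promoters. The GC box occurred in 1 of 14 and 5 of 26, TATAAA in 2 of 14 and 9 of 26, and CCAAT in 5 of 14 and 7 of 26. A match is a run of letters and not a shown binding site.

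The other CXC and CX3C receptors above the control level included Cxcr6, the receptor of Cxcl16 on innate-like T cells, which did not pass the test. Its probe set with the larger change read 10.1, 33.2 and 3.38 in wild type and 41.3, 74.4 and 47.6 in the group labelled double knockout. The groups did not overlap, but wild type replicate 2 lay near the lowest of the other group, and the log2 change was 1.23 (SE 0.36, limma adjusted p = 0.075). Without wild type replicate 2 it passed (1.63, adjusted p = 0.0294). Its other probe set read 9.47, 36.2 and 14.6 against 47.1, 43.5 and 57.8, again without overlap (0.91, SE 0.31, adjusted p = 0.134). On both Cxcr6 probe sets, wild type replicates 1 and 3 lay under the control level of their arrays.

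Cx3cr1, the fractalkine receptor of monocytes and cytotoxic lymphocytes, was dim on both probe sets. They read 18.4, 17.5 and 13.0 against 31.2, 35.8 and 36.1 (log2 change 0.63, SE 0.25, adjusted p = 0.199), and 3.00, 10.7 and 11.7 against 22.4, 26.0 and 20.3 (0.67, SE 0.29, adjusted p = 0.242). All wild type readings lay under the control level of their arrays, and the groups did not overlap on either probe set. Cxcr5, the receptor that guides B cells and follicular helper cells, overlapped between groups, with 80.7, 72.6 and 29.4 against 93.9, 38.8 and 46.8 (-0.03, SE 0.36, adjusted p = 0.977). Cxcr2, the main neutrophil chemokine receptor, was under the filter and exceeded the control level on wild type replicate 2 only, where it read 23.6.

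Ccr9, the receptor that marks early thymocytes and responds to Ccl25, lay above the control level on all 6 arrays on 3 of its 5 probe sets and did not pass the test on any of its probe sets. Its probe set with the suffix _x_at, used for probes that can match other transcripts, read 4191, 4424 and 2003 in wild type and 2720, 2441 and 3712 in the group labelled double knockout. The groups overlapped, with wild type replicate 3 the lowest of the 6 (log2 change -0.21, SE 0.31, limma adjusted p = 0.773). A second probe set read 347, 664 and 629 against 792, 1109.7 and 613 (0.60, SE 0.31, adjusted p = 0.343). Another read 58.1, 106 and 95.0 against 134, 145 and 108 (0.51, SE 0.27, adjusted p = 0.351), which overlapped only after each array was centred on its median. The _x_at probe set differs in sign from these. A dim probe set read 9.83, 34.0 and 24.1 against 33.1, 40.7 and 14.3 (0.22, SE 0.34, adjusted p = 0.793). The last, under the control level on all 6 arrays, was not tested and gave -0.30 without the filter (adjusted p = 0.662).

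None of the CC receptors of migrating and mature T cells passed the test. Ccr7, which guides thymocytes into the medulla, read 17.4, 67.3 and 11.4 in wild type and 58.5, 43.4 and 83.3 in the group labelled double knockout. Wild type replicate 2 lay within the other group and replicates 1 and 3 under the control level, and the log2 change of 0.83 (SE 0.40, limma adjusted p = 0.304) did not pass. Ccr4, a receptor of Ccl17 and Ccl22 on thymocytes after positive selection, read 18.2, 10.4 and 4.19 against 23.7, 16.4 and 25.7 (0.50, SE 0.30, adjusted p = 0.419). Ccr6, the receptor of Ccl20, read 89.4, 141 and 68.5 against 54.8, 70.8 and 97.0, with overlapping groups (-0.36, SE 0.30, adjusted p = 0.586). Ccr8 was under the filter.

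Receptors of myeloid cells did not pass the test either. Ccr2, the monocyte receptor of Ccl2, read 63.7, 89.3 and 54.8 against 71.2, 39.5 and 62.6 on the probe set above the control level on all 6 arrays (-0.23, SE 0.28, adjusted p = 0.724), with overlap. A second read 5.30, 20.2 and 31.4 against 31.0, 33.9 and 27.3 (0.47, SE 0.32, adjusted p = 0.485), and a further one 68.0, 15.4 and 50.2 against 58.5, 23.0 and 70.5 (0.16, SE 0.39, adjusted p = 0.877). Both overlapped between groups, and a dim Ccr2 probe set that was not tested gave -0.17 without the filter. Ccr1, a receptor of Ccl3, Ccl5 and Ccl9, read 26.1, 55.9 and 19.3 against 38.0, 58.4 and 33.7 (0.28, SE 0.32, adjusted p = 0.702), and its dim second probe set, not tested, gave 0.13 without the filter. Xcr1, a receptor of cross-presenting dendritic cells, read 2.98, 5.85 and 34.3 against 14.2, 24.5 and 16.5, and wild type replicate 3 was the highest of the 6 arrays (0.29, SE 0.37, adjusted p = 0.742). Ccr3, an eosinophil receptor, stayed between 0.954 and 3.66 and was not tested.

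Across all 20 tested receptor probe sets, 16 had a positive and 4 a negative log2 change, with a median of 0.50, beside a median of 0.00 over all tested probe sets, of which 50.3% were positive. The groups did not overlap in 7, all higher in the group labelled double knockout, where 12.3% of all tested probe sets were higher without overlap and 11.6% lower. These 7 belong to Cxcr3, Cxcr4, Ccr10, Cxcr6 and Cx3cr1, and probe sets of 1 gene are not independent. Of the positive probe sets, the dimmer one of Cx3cr1 had a mean of 8.50 in wild type against 22.9. Ccr4, whose groups overlapped, had 10.9 against 21.9. These wild type means were under the filter intensity of 13.2. Each thus passed the filter through its brighter group, and its direction is not independent of the filter. Over all 26 receptor probe sets without the filter, 7 were higher without overlap, 0 were lower without overlap and the median was 0.29. By subfamily, 2 of 5 tested CXC and 1 of 12 tested CC receptor probe sets passed, where 5.03% of all tested probe sets did.

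**Figure D3:**
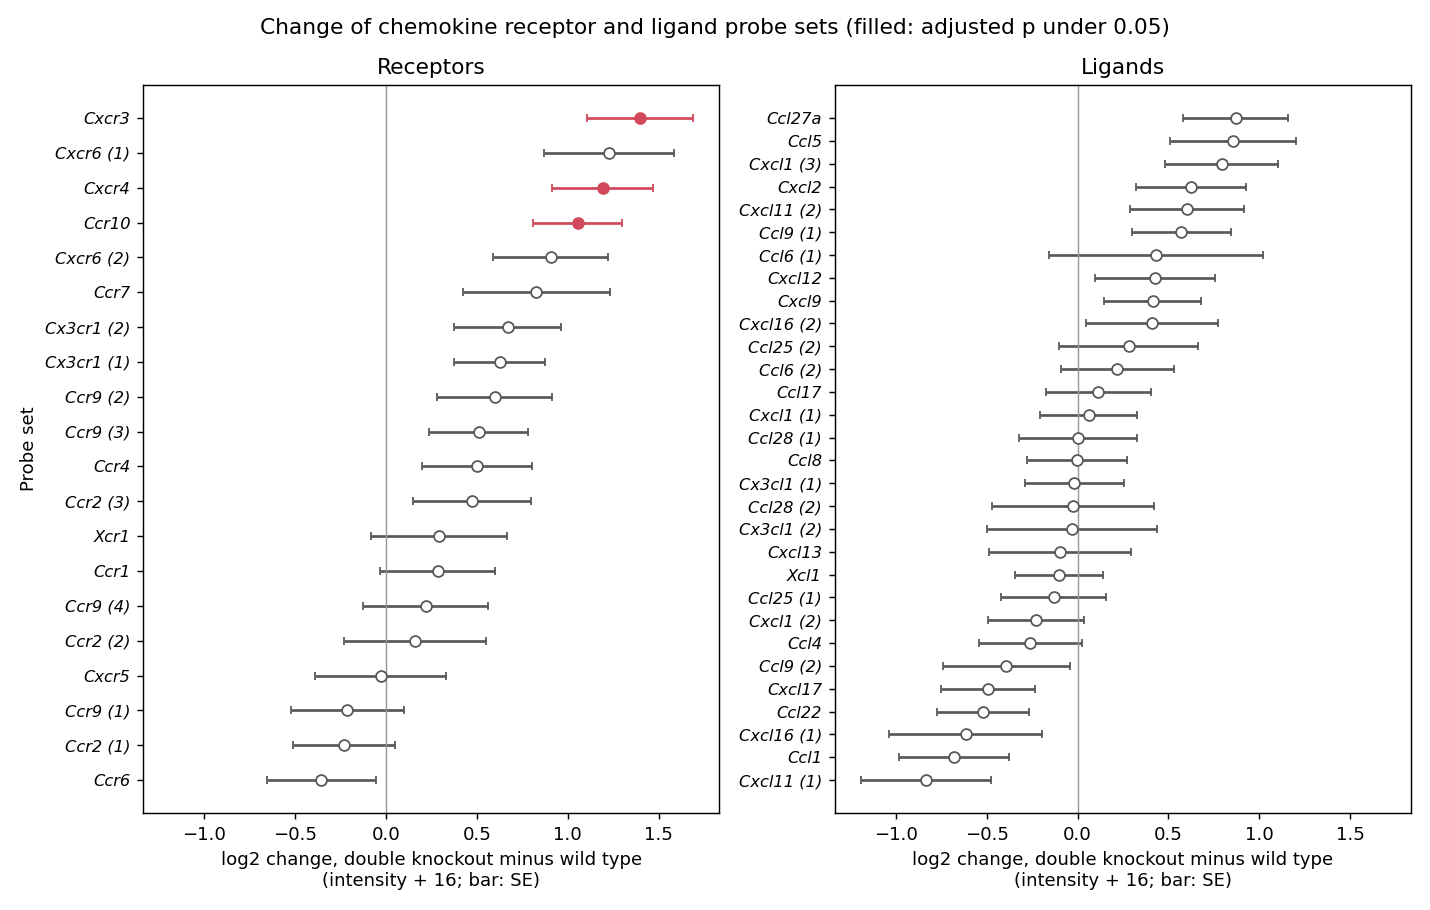
log2 change (point) and SE (bar) of the 20 receptor and 30 ligand probe sets tested, each panel ordered by the change and filled where the limma adjusted p was under 0.05. The filled receptors Cxcr3, Cxcr4 and Ccr10 lie between 1.05 and 1.40; 16 of 20 receptor points and 15 of 30 ligand points lie above 0, and no ligand is filled.

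No ligand passed the test: 0 of 30 probe sets had an adjusted p under 0.05 and 5 of 30 an unadjusted p under 0.05, beside 18.8% of all tested probe sets. The log2 changes ran from -0.83 to 0.87, 15 positive and 15 negative, with a median of 0.00. The groups did not overlap in 6 that were higher and 3 that were lower in the group labelled double knockout, beside 12.3% and 11.6% of all tested probe sets. Of those higher, a dim Cxcl1 probe set (mean 6.82 against 23.8) and Cxcl2 (8.13 against 21.1) were under the filter intensity of 13.2 in wild type. Of those lower, Ccl1 (25.8 against 9.86) was under it in the group labelled double knockout. Each thus passed the filter through its brighter group, and its direction is not independent of the filter. Of all 51 ligand probe sets, 19 stayed under the control level on every array and only 7 lay above it on all 6.

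Among CC ligands, Ccl5, made by cytotoxic and memory lymphocytes, read 452, 462 and 199 in wild type and 573, 539.6 and 887 in the group labelled double knockout. The groups did not overlap, yet wild type replicate 3 was far below the other wild type arrays, and the log2 change of 0.85 (SE 0.34, limma adjusted p = 0.2) did not pass. Without wild type replicate 3 the change was 0.47. Ccl27a, a ligand of Ccr10, read 43.5, 68.6 and 109 against 129, 158 and 143, without overlap (0.87, SE 0.29, adjusted p = 0.118). Ccl27a passed with wild type replicate 3 left out (1.13, adjusted p = 0.018), and its probe set has the suffix _x_at. Among the probe sets with several symbols, 2 name Ccl27a beside near-identical copies, and they gave 0.38 (SE 0.27) and 0.58 (SE 0.36) without passing.

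Ccl22 and Ccl17, ligands of Ccr4, did not pass. Ccl22 read 132, 118 and 89.9 in wild type and 81.9, 60.3 and 82.6 in the group labelled double knockout, lower without overlap (-0.52, SE 0.25, limma adjusted p = 0.297). Ccl17 read 22.4, 22.2 and 52.0 against 28.9, 34.0 and 42.4 (0.11, SE 0.29, adjusted p = 0.88). Ccl1, the ligand of Ccr8, read 34.6, 29.6 and 13.2 against 9.19, 13.3 and 7.06, and only wild type replicates 1 and 2 lay above the control level (-0.68, SE 0.30, adjusted p = 0.256). After centring, the groups of Ccl1 did not overlap.

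Ccl25, the thymic ligand of Ccr9 made by epithelium, read 44.2, 22.2 and 64.9 against 31.6, 42.1 and 36.9 on its probe set above the control level on all 6 arrays, with overlap (-0.13, SE 0.29, adjusted p = 0.857). Its other probe set read 5.77, 29.1 and 34.8 against 17.8, 24.0 and 52.8, also with overlap (0.28, SE 0.38, adjusted p = 0.759). The 10 thymic epithelium markers summed to 485 to 2171 in wild type and 1276 to 3251 in the other group, and 0 of 9 tested passed. Most of the sum on each array came from Epcam alone, at 271 to 1784 and 865 to 2890. The part of these markers in the ligand values was not tested.

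Ccl28, a further Ccr10 ligand of epithelia, read 31.9, 18.3 and 5.10 against 2.66, 50.0 and 11.8 on one probe set (-0.02, SE 0.45, limma adjusted p = 0.985). On another it read 15.4, 18.3 and 31.0 against 21.2, 39.3 and 9.54 (0.00, SE 0.33, adjusted p = 0.999). In both the group labelled double knockout held the highest and the lowest reading, and a dim probe set, not tested, gave 0.17 without the filter.

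No chemokine of activated lymphocytes and macrophages passed the test. Ccl4, made by activated lymphocytes and macrophages, read 36.7, 43.7 and 57.5 against 33.7, 24.0 and 54.3 (-0.26, SE 0.28, limma adjusted p = 0.693). Ccl3, Ccl2, Ccl7, Ccl11, Ccl12, Ccl20 and Ccl24 were under the filter and under the control level on all 6 arrays. Of these, Ccl24, an eosinophil attractant, read 13.4, 8.82 and 20.5 against 4.92, 4.41 and 5.11, lower without overlap (-0.54 without the filter, SE 0.23, adjusted p = 0.327). Xcl1, the lymphotactin made by cytotoxic cells that binds Xcr1, read 77.1, 76.5 and 58.5 against 62.5, 57.5 and 77.4 (-0.10, SE 0.24, adjusted p = 0.872). Ccl8, a monocyte attractant, read 18.8, 25.9 and 24.8 against 14.3, 28.6 and 29.5, around the control level and with overlap (-0.001, SE 0.27, adjusted p = 0.999).

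Ccl6 and Ccl9, chemokines of myeloid cells, did not pass the test. Ccl6 read 51.0, 159 and 5.00 in wild type and 73.7, 49.0 and 91.4 in the group labelled double knockout. Wild type replicate 3, which read 20.4 for the granulocyte gene S100a8 where the other arrays read 5282 to 12016, was the lowest for Ccl6 as well (log2 change 0.43, SE 0.59, adjusted p = 0.76), and the part of granulocyte RNA in it was not tested. Without that array the change was -0.37. A second Ccl6 probe set read 25.4, 53.8 and 19.9 against 29.6, 40.7 and 49.5 (0.22, SE 0.31, adjusted p = 0.767). No granulocyte marker of 13 tested passed, and Itgam stayed under the control level on all 6 arrays. Ccl9 read 30.7, 27.7 and 15.0 against 41.5, 35.8 and 56.4, higher without overlap (0.57, SE 0.27, adjusted p = 0.293), while its second tested probe set, under the control level on all 6 arrays, gave -0.39 (SE 0.35).

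**Figure D4:**
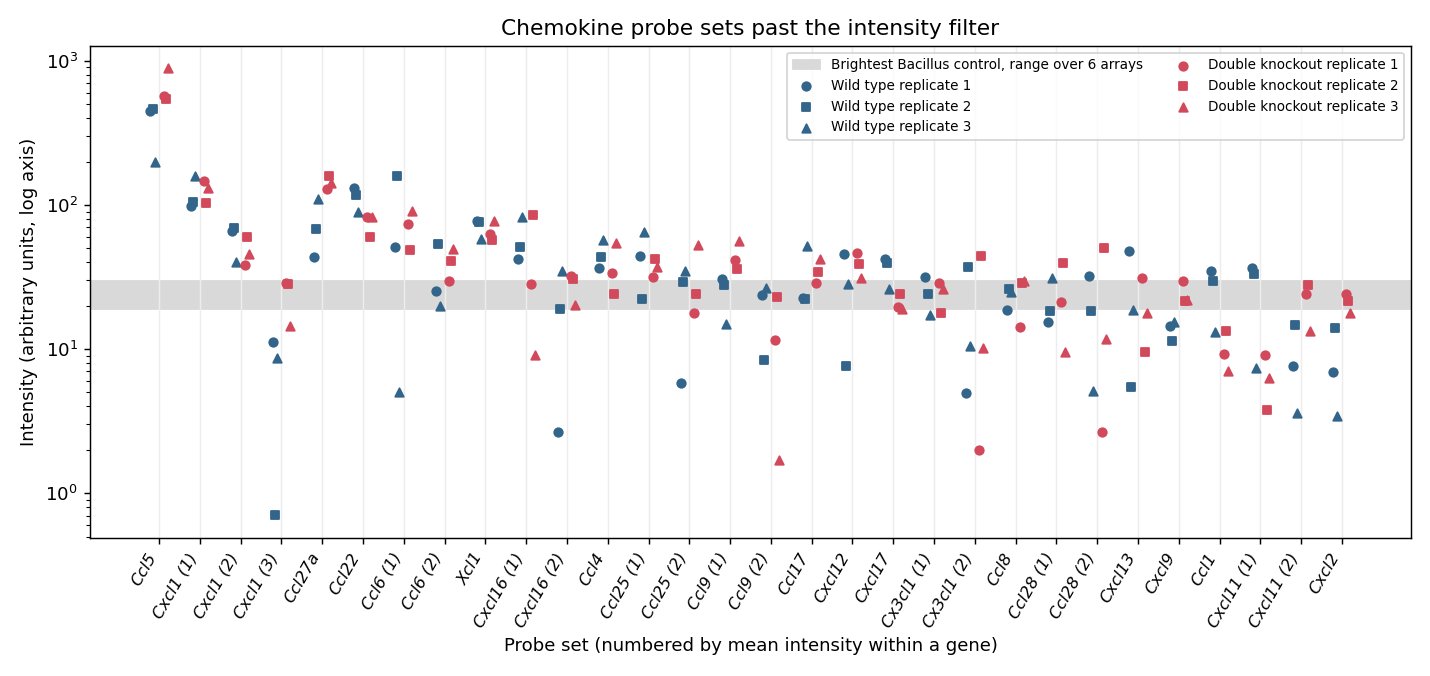
Intensity (log axis) of the 30 ligand probe sets past the filter on each of the 6 arrays, wild type in blue and labelled double knockout in red, with the symbol for the replicate number. The grey band is the range of the brightest Bacillus control, 19.0 to 29.9; most points lie in or near it, and the red points of Ccl5, from 539.6 to 887, lie above its blue points, from 199 to 462.

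The CXC ligands were mostly at the control level. Cxcl12, the ligand of Cxcr4, was tested on 1 of 3 probe sets, which read 45.5, 7.58 and 28.1 against 46.3, 38.7 and 31.1 (0.43, SE 0.33, limma adjusted p = 0.546). The others gave -0.22 and 0.21 without the filter. Of the Cxcr3 ligands, Cxcl11 gave -0.83 (SE 0.36, adjusted p = 0.233) on a probe set reading 36.4, 33.3 and 7.41 against 9.10, 3.75 and 6.34, and 0.60 (SE 0.31, adjusted p = 0.336) on a second reading 7.58, 14.8 and 3.59 against 24.2, 27.6 and 13.4. The 2 Cxcl11 probe sets moved in opposite directions near the control level, and the first passed without wild type replicate 3 (-1.22, adjusted p = 0.0335). Cxcl10 was under the filter, and Cxcl9 was tested on a probe set that exceeded the control level on 1 array (0.41, SE 0.27).

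Cxcl16, the ligand of Cxcr6, gave -0.62 (SE 0.42, limma adjusted p = 0.488) and 0.41 (SE 0.37, adjusted p = 0.613) on its probe sets. The first read 42.5, 50.9 and 82.9 in wild type and 28.1, 85.1 and 9.03 in the group labelled double knockout, so that the latter held both the highest and the lowest reading. The second read 2.66, 19.0 and 34.9 against 31.9, 30.7 and 20.2, with overlap. Cxcl1, a neutrophil attractant, had 2 probe sets above the control level on all 6 arrays, which overlapped between groups. They read 98.1, 104 and 159.9 against 148, 103 and 130.4 (0.06, SE 0.27, adjusted p = 0.932), and 65.8, 69.3 and 40.1 against 38.3, 59.6 and 45.3 (-0.23, SE 0.26, adjusted p = 0.709). A dim Cxcl1 probe set read 11.1, 0.702 and 8.66 against 28.7, 28.3 and 14.4, higher without overlap (0.79, SE 0.31, adjusted p = 0.186). Cxcl17 read 41.9, 39.3 and 25.9 against 19.7, 24.3 and 18.8, lower without overlap (-0.49, SE 0.26, adjusted p = 0.341).

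Cxcl13, the ligand of Cxcr5, read 48.0, 5.49 and 18.6 against 30.9, 9.51 and 17.8, with overlap (-0.10, SE 0.39, limma adjusted p = 0.928), and a dimmer probe set gave -0.56 without the filter. Cx3cl1, the ligand of Cx3cr1, read 31.7, 24.2 and 17.3 against 28.7, 17.8 and 26.3 (-0.02, SE 0.27, adjusted p = 0.983), and on a second probe set 4.94, 36.9 and 10.5 against 1.99, 44.4 and 10.2 (-0.03, SE 0.47, adjusted p = 0.982). Both overlapped, and 2 dim Cx3cl1 probe sets gave 0.53 and 0.04 without the filter.

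The remaining members were dim. In all, 27 of 77 probe sets were under the filter, and without it their log2 changes ran from -0.56 to 0.53 with no adjusted p under 0.286. Among these, Cxcl5, Cxcl14 and Cxcl15 stayed under the control level on all 6 arrays. The dim Cxcl2, tested, read 6.91, 14.1 and 3.42 against 24.0, 21.6 and 17.7 and exceeded the control level on 1 array (0.62, SE 0.30, limma adjusted p = 0.297).

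No family gene with a neighbouring family gene in the RefSeq gene order passed the test. Ccr9, Cxcr6, Xcr1, Ccr1, Ccr3 and Ccr2 lie close together on chromosome 9, and 0 of these 6 passed. Of them, Ccr3 was under the filter and not tested. Cxcr4 on chromosome 1, Ccr10 on chromosome 11 and Cxcr3 on chromosome X each lie apart from other members. The 6 ligand genes from Ccl2 to Ccl1 and the 5 from Ccl5 to Ccl4 form separate groups on chromosome 11, and 0 of them passed. Of them, Ccl2, Ccl7, Ccl11, Ccl12 and Ccl3 were under the filter and not tested. With 1 probe set per gene, 6.98% of all genes passed, so counts of 0 do not set groups this small apart.

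Genes that act with the receptors were read from a list of 56 further genes, of which 53 were tested, each by its probe set of highest mean. Those past the test were 4 genes that rose and 1 that fell out of the 53, and the median log2 change was 0.23, where 5.03% of all tested probe sets passed. With p-values adjusted over genes 7 of the list passed, where 6.98% of all genes did. By array left out the number that passed ran from 1 to 10, with 10 when wild type replicate 3 was left out. Rgs1, an RGS protein that dampens chemokine receptor signals in lymphocytes, read 33.4, 45.1 and 23.4 in wild type and 146, 163 and 179.5 in the group labelled double knockout. The groups lay far apart, and Rgs1 rose by 1.84 (SE 0.26, limma adjusted p = 0.002). Rgs2, a related regulator that acts mainly on Gq, rose by 1.18 (SE 0.26, adjusted p = 0.0226), from 488 ± 120.5 to 1123 ± 97.3 (SD, n = 3 each). A dimmer Rgs2 probe set also rose (1.24, SE 0.27), another gave 0.67 (SE 0.27) and did not pass, and the last was not tested.

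Rgs10, a further regulator of this family, was the gene that fell, from 845, 1114 and 2003 in wild type to 411, 442 and 389 in the group labelled double knockout (-1.56, SE 0.30, limma adjusted p = 0.0134). Dpp4, the surface peptidase CD26 that trims several chemokines, rose by 1.06 (SE 0.23, adjusted p = 0.0209), from 782 ± 113 to 1666 ± 167, while its other probe sets gave 0.82 (SE 0.23), 0.73 (SE 0.29) and 0.24 (SE 0.28) and did not pass. Rhoh, a haematopoietic small GTPase, rose by 1.14 (SE 0.30, adjusted p = 0.0489), from 1140.1 ± 432 to 2429 ± 38.5. None of the 5 atypical and related receptors passed, and Ccrl2 had the largest of their changes (0.79, SE 0.25, adjusted p = 0.108). G protein subunits, receptor kinases and arrestins did not pass on their probe sets of highest mean. Among the dimmer probe sets of the list, 1 of Gna13, a G protein subunit that acts on the cytoskeleton, rose (1.02, SE 0.23, limma adjusted p = 0.029), while the other 6 for Gna13 gave -0.14 to 0.99 and did not pass. A dimmer probe set of Skap1, an adaptor in integrin activation, also rose (1.74, SE 0.31, adjusted p = 0.00757), whereas its probe set of highest mean gave -0.21 (SE 0.25).

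Markers of other cells that carry these receptors were read beside them. Of the NK cell list, 1 of 5 tested markers passed, Nkg7, which read 162 to 279 in wild type and 1243 to 2423 in the group labelled double knockout. The summed level of the 7 NK markers on the array was 11140.5 to 16106 in wild type and 13022 to 14349 on the others. Most of this sum was Gzma, at 10727 to 15852 and 10488 to 13005, so it hides the rise of Nkg7. The other tested NK markers did not share this rise, with log2 changes of 0.35 for Prf1, -0.01 for Klrk1, -0.08 for Gzma and -0.17 for Eomes. Ncr1 stayed under the control level on all 6 arrays. The 11 macrophage and monocyte markers summed to 1070.4 to 2988 and to 1949 to 2343, mostly from Lyz2 (786 to 2551 and 1434 to 1937). Cd14 alone passed among 9 tested, with a log2 change of 1.44. The others went both ways, from -0.50 for Fcgr1 to 0.46 for Cd68, and C1qc and Vsig4 were never above the control level. Among 6 tested B cell markers Cd79b alone passed, with a log2 change of 1.10. The others were negative: Ighm -0.97 (limma adjusted p = 0.051), Cd79a -0.60, Blnk -0.17, Ms4a1 -0.15 and Pax5 -0.02. Among 6 tested markers of endothelium and mesenchyme Pdgfrb alone passed (1.47). Cdh5 (-0.70), Pdgfra (-0.56), Kdr (-0.36) and Col1a2 (-0.31) were negative and Col3a1 (0.56) positive. Pecam1, Tie1 and Col1a1 were never above the control level, and 0 of 9 tested dendritic cell markers passed. Their part in the receptor values was not tested.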

How the data were processed

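The 6 arrays were grouped as the sample labels name them, 3 as wild type and 3 as double knockout of Egr1 and Egr3. The deposited values are linear intensities per probe set. The labels do not say how the authors summarised probes. Genes were named through the platform annotation, with all 77 members matched in the RefSeq table (GRCm38.p6). An offset of 16 was added, log2 taken and each array centred on its median, as array medians differed by 0.126. Probe sets under the 40th percentile of mean log2 value (an intensity of 13.2) were left out. Changes were tested with limma 3.58.1 in R 4.3.3 (intensity trend, Benjamini-Hochberg over all probe sets tested, threshold 0.05). The fit was tested on simulated data. The labels name separate animals per array. Values per array were given for members past the threshold, or tested and above the brightest Bacillus control on at least 2 arrays, and the other probe sets of such genes were given with them. Pathway genes past the threshold were named. Ccr3, Ccr8, Cxcr2, Cxcl2, Cxcl9, Ccrl2 and the other dim ligands named, and dimmer probe sets of Gna13 and Skap1, were chosen after their values were seen. Members, lists and rules were chosen with earlier results of these data known. Other settings tried were no centring, quantile normalization, other offsets and filters, no trend, array weights, a replicate block, each array left out and 1 probe set per gene.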

Additional observations from a re-analysis of the deposited data

How the results depend on the processing

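The number of arrays and the nearness of most ligands to the control level limit these results. The count of receptor probe sets that passed was 3 or 2 under other scalings, offsets, filters, variance settings and 1 probe set per gene, and 0 to 3 with an array left out. That of ligands was 0 under all of these except array weights (2, Ccl27a and a Cxcl1 probe set), and 0 to 2 with an array left out (Ccl27a and a Cxcl11 probe set without wild type replicate 3). Over all probe sets the count of 1358 became 3417 with array weights and 376 to 2744 with an array left out. The pathway count of 5 became 8 on values as deposited, 15 with array weights and 1 to 10 with an array left out. Replicate numbers did not pair the arrays, since same-numbered arrays had deviations correlated at -0.05, -0.13 and -0.29. With the replicate block the counts were 0 receptors, 0 ligands, 573 probe sets overall and 2 pathway genes.

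Some log2 changes of the members given with values turned sign under another setting. With array weights they were 0.0016 for the brighter Ccl25 probe set, -0.084 and -0.11 for Ccl6, 0.045 for Cx3cl1, 0.34 for Cxcl13 and 0.14 for Cxcr5. With an offset of 64 they were 0.019 for Ccl28, 0.0048 for Ccl8 and 0.0040 for Cx3cl1, with an offset of 1 -0.062 for Ccl28, with quantile normalization -0.0080 for Ccl28, and on values as deposited 0.017 for Ccl8 and 0.00051 for Cx3cl1. With an array left out the ranges were -0.043 to 0.38 for Ccl17, -0.39 to 0.11 and -0.12 to 0.50 for Ccl25, -0.35 to 0.36 and -0.26 to 0.27 for Ccl28, -0.37 to 1.20 for Ccl6 and -0.11 to 0.17 for Ccl8. They were -0.16 to 0.13 and -0.33 to 0.33 for Cx3cl1, -0.075 to 0.25 for the _x_at probe set of Cxcl1, -0.44 to 0.29 for Cxcl13 and -0.0043 to 0.73 for Cxcl16. For receptors they were -0.23 to 0.53 for Ccr2, -0.59 to 0.019 and -0.069 to 0.48 for Ccr9 and -0.38 to 0.19 for Cxcr5. The causes were not tested.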
